A study of Mus musculus with 50 samples.

Results

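The transcription factors Fli1, Erg, Gata2, Tal1, Lyl1 and Lmo2 were followed in 50 single mouse cells. They were taken by gene symbol, and all 6 were found among the 11879 gene rows of the deposited expression table. The cells were induced hemogenic endothelial cells (iHECs), made in culture from embryonic stem cells of C57BL/6 background. Those stem cells held an rtTA-TRE-Runx1-HygroR cassette in the Rosa26 locus, so that doxycycline switches on extra Runx1 (iRunx1), and by the study's methods doxycycline was given from day 6 until the cells were sorted on day 11 as CD31+CD41lowCD45-c-kit+CD201high. All 50 cells belong to this single group, which has no control without the cassette or without doxycycline, and the labels name no separate cultures or clones. They therefore count as 1 sample with no replicate, and every value below describes these cells without a test.

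Hemogenic endothelium is the vessel lining from which the first blood stem and progenitor cells bud. Fli1 and Erg are Ets factors, Gata2 is a zinc finger factor, Tal1 and Lyl1 are related basic helix-loop-helix (bHLH) factors, and Lmo2 is a LIM protein that does not bind DNA itself but bridges the bHLH and GATA factors through Ldb1. In blood progenitors these proteins occupy many regulatory elements together, often with Runx1, and several of them act on each other's genes.

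Because the factors act on each other's genes, 250 bases upstream of the RefSeq transcript start are shown for the bHLH pair, which differed widely in level, and for the Erg window that held the most matches to the motifs of these factors. RefSeq windows (GRCm38.p6) were found for 4 of the 6 genes, with 3 for Erg, 2 each for Gata2 and Tal1 and 1 for Lyl1; Fli1 and Lmo2 had no entry. Each window is given 5′ to 3′ on the strand of its gene, and capitals mark GATAA (GATA factors) or GGAAG (Ets factors) read on either strand, so that TTATC and CTTCC are the same letters on the other strand.
Tal1, chr4:115056176-115056425, plus strand: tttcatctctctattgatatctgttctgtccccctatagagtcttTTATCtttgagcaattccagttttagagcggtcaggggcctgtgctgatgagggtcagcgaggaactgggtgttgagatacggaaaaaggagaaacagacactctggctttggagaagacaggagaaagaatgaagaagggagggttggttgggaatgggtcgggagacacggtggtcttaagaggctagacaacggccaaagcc
Tal1, chr4:115057561-115057810, plus strand: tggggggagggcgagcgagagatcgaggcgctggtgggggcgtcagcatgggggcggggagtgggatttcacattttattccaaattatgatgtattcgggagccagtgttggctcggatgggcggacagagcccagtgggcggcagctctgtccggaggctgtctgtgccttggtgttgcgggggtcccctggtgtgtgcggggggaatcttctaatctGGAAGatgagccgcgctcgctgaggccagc
Lyl1, chr8:84701207-84701456, plus strand: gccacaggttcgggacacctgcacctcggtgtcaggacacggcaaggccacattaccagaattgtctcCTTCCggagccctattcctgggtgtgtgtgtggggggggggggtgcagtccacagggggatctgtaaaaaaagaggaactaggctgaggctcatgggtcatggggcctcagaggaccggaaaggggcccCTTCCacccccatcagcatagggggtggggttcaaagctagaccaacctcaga
Erg, chr16:95459349-95459598, minus strand: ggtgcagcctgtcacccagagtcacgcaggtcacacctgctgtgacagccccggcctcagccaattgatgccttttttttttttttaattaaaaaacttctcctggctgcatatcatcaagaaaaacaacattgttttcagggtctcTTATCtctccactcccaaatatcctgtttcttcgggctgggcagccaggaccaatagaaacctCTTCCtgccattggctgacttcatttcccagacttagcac
The upstream Tal1 window held 1 GATAA and the downstream one 1 GGAAG. The Lyl1 window held 2 GGAAG and 1 E-box (CANNTG, the bHLH motif, not capitalised). The Erg window held 1 GATAA, 1 GGAAG and 2 E-boxes, while of the other Erg windows 1 held a single GGAAG and 1 held none of these letters. Neither Gata2 window held any, and the Runx letters TGTGGT were in none of the 8 windows. Of all 32851 windows of this length, 22.6% held GATAA, 64.1% GGAAG, 66.2% CANNTG and 14.0% TGTGGT, so matches to the Ets and E-box letters are common anywhere.

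Values are TPM, transcript abundances that the authors scaled for transcript length and to a common total per cell. Levels of different genes can be compared only roughly, since amplified copies were not told apart. A gene is called expressed where its TPM exceeded 1. Sequencing depth cannot be read from TPM, and the number of genes above TPM 1 stood in for how well a cell was measured. That number ran from 2400 in the poorest cell (cell 4-6) to 8615. Genes that cells generally use, such as Hprt and Tbp, were listed at 0 in 3 and 13 cells, so a factor listed at 0 need not be absent. Of the sort markers, Pecam1 (CD31) was expressed in 50 cells, Procr (CD201) in 50, Kit in 47 and Itga2b (CD41) in 40, whereas Ptprc (CD45) was listed at 0 in all. Cell titles carry 2 numbers of unstated meaning, the first from 1 to 4 with 11, 14, 13 and 12 cells, and ranges over these 4 sets of cells are given as a description only.

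Fli1 was the most even and most abundant of the factors. Its gene lies at chr9:32422204-32542861 on the minus strand (GRCm38), and it was above TPM 1 in 50 of 50 cells (exact Clopper-Pearson 95% interval 92.9% to 100%, counting error only). Its lowest, median and highest TPM were 14.4, 101 and 388. No cell fell below TPM 10, with 25 cells between 10 and 100 and 25 above 100. Of all gene rows, 7.15% were above TPM 1 in all 50 cells.

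Erg, the second Ets factor (chr16:95359169-95586593, minus strand), was expressed in 38 cells (76%, 61.8% to 86.9%). It ran from 0 through a median of 23.9 to 103 TPM, with 10 cells listed at 0 and 32 cells between 10 and 100. Fli1 exceeded Erg in 46 cells and Erg exceeded Fli1 in 4. Every cell thus had an Ets factor, and 38 had both.

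Gata2, the GATA factor of early blood progenitors (chr6:88193891-88207032, plus strand), was expressed in 41 cells (82%, 68.6% to 91.4%). Its lowest, median and highest TPM were 0, 20.7 and 172. It was listed at 0 in 7 cells, and in 32 cells it lay between 10 and 100.

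Of the bHLH pair, Lyl1 was the widespread member and Tal1 the scarce one. Lyl1 (chr8:84701457-84704715, plus strand) was expressed in 43 cells (86%, 73.3% to 94.2%), from 0 through a median of 46.03 to 148 TPM. Tal1 (chr4:115056426-115071755, plus strand) was expressed in 29 cells (58%, 43.2% to 71.8%), from 0 through a median of 3.096 to 34.5 TPM, with 15 cells listed at 0 and none above 100. The share with Tal1 was 42% at a level of TPM 5 and 30% at TPM 10. Lyl1 was the higher of the pair in 43 cells and Tal1 in 6. Both were expressed in 25 cells, Lyl1 alone in 18, Tal1 alone in 4 and neither in 3. The share of cells with Lyl1 was 86.2% where Tal1 was expressed and 85.7% where it was not.

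Lmo2, the bridging LIM protein (chr2:103957986-103981878, plus strand), was for the most part either not above TPM 1 or abundant. It was expressed in 33 cells (66%, 51.2% to 78.8%), and ran from 0 through a median of 30.9 to 650 TPM, the widest range of the 6. It was listed at 0 in 12 cells and lay between TPM 1 and 10 in only 1 cell, while 10 cells were above 100. Within the 33 cells the median was 79.8 TPM.

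All 6 factors were above TPM 1 in at least 25 of the 50 cells, as were 53.2% of all gene rows. By median TPM the order was Fli1, Lyl1, Lmo2, Erg, Gata2 and Tal1. Fli1 was set apart, its interquartile range (68.8 to 134) overlapping that of Lmo2 but of no other factor. The interquartile ranges of Lyl1, Lmo2, Erg and Gata2 overlapped, and some neighbours in this order traded places between cells. Lyl1 exceeded Lmo2 in 25 cells and was below it in 23, and Erg exceeded Gata2 in 23 cells and was below it in 24. Lmo2 exceeded Erg in 29 cells and was below it in 18. Further apart in the order, Lyl1 exceeded Erg in 33 cells against 17 and Gata2 in 38 against 10. Tal1 came last, below Gata2 in 37 cells and above it in 9, and its interquartile range overlapped those of Lmo2, Erg and Gata2 but not that of Lyl1. The factor with the highest TPM in a cell was Fli1 in 31 cells, Lmo2 in 12, Lyl1 in 6 and Erg in 1.

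**Figure D1:**
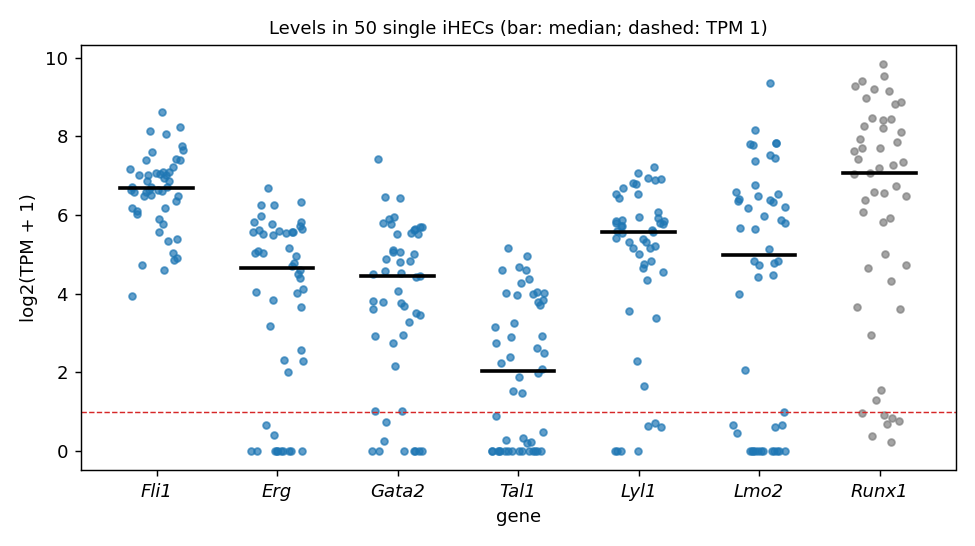
Levels of the 6 factors and Runx1 as log2(TPM + 1), 1 point per cell and 50 cells per gene, with the median as a bar and TPM 1 as a dashed line. Fli1 has no cell near the line, whereas Erg, Tal1 and Lmo2 have 12, 21 and 17 cells at or below it.

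Over the sets of cells given by the first title number, the share of cells varied the most for Tal1. Tal1 was expressed in 12 of 14 cells of number 2 (85.7%, 57.2% to 98.2%) but in 4 of 13 cells of number 3 (30.8%, 9.09% to 61.4%). Lmo2 ran the other way, in 8 of 14 cells of number 2 and 11 of 13 of number 3, and all 13 cells of number 3 had Lyl1. Erg ranged from 61.5% to 90.9% and Gata2 from 66.7% to 92.9% of cells. What the number stands for is not given, so a batch and a difference between cells cannot be told apart.

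Most cells held 4 or more of the 6 factors together, where the median cell had 52.4% of all gene rows above TPM 1 (20.2% to 72.5%). All 6 were expressed in 16 cells (32%, 19.5% to 46.7%), 5 in 12 cells, 4 in 14, 3 in 7 and 1 in a single cell, with a median of 5 factors and a mean of 4.68 ± 1.19 (SD over cells). With the level set at TPM 5 or TPM 10, all 6 were found in 20% or 14% of cells. The single cell with 1 factor, which had only Fli1, was cell 4-6 with 2400 genes above TPM 1. The summed TPM of the 6 factors ranged from 55.0 to 848 with a median of 274.

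**Figure D2:**
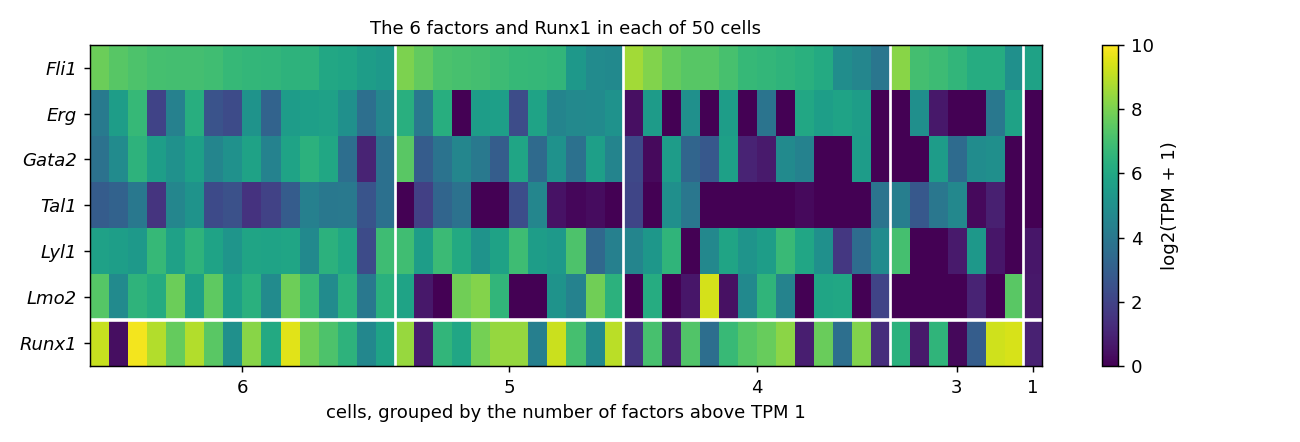
Level of each factor and of Runx1 (rows) in each cell (columns), as log2(TPM + 1) by colour, with cells grouped by the number of factors above TPM 1 and ordered by Fli1 within a group. In the 16 cells with all 6 factors Tal1 mostly has the darkest, that is lowest, colour, and the cells with 4 factors mostly lack Tal1.

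A bHLH factor, Lmo2, Gata2 and an Ets factor, that is, 1 of each kind the complex holds, were together in 27 cells (54%, 39.3% to 68.2%). This number was set by Gata2 and Lmo2 alone, since all 27 cells with both of them also had Lyl1 and Fli1; 17 had Tal1 and 23 had Erg. Gata2 was found without Lmo2 in 14 cells, Lmo2 without Gata2 in 6, and neither in 3. Lmo2 was expressed in 65.9% of the cells with Gata2 and 66.7% of those without.

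Among the 12 cells with 5 factors, Tal1 was the missing factor in 7, Lmo2 in 4 and Erg in 1. In the 16 cells with all 6, Tal1 was the lowest factor in 11, Gata2 in 3 and Erg in 2. Altogether 17 combinations were seen, of which 6 held at least 3 cells each and 37 cells in all. Besides the full set (16 cells) these were the set without Tal1 (7), the set without Lmo2 (4), Fli1, Erg, Lyl1 and Lmo2 (4), Fli1, Erg, Gata2 and Lyl1 (3), and Fli1, Gata2, Lyl1 and Lmo2 (3). Fli1 and Lyl1 were in every one of these 6 combinations.

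Cells with more of the factors were also cells in which more genes were measured. Median genes above TPM 1 were 4915 in cells with 3 factors, 5824 with 4, 6406 with 5 and 6713 with 6. Spearman's rho between both numbers was 0.64 over 50 cells (0.35 to 0.76 within the first title numbers). Cells with all 6 factors had 4955 to 8615 genes and the others 2400 to 7500, so the ranges overlapped. Lmo2, Gata2 and Lyl1 followed genes per cell at rho of 0.47, 0.45 and 0.39, whereas Tal1 (0.031), Fli1 (0.031) and Erg (0.019) had values near 0, and 27.4% of gene rows reached 0.3. The part of this in the co-expression was not tested.

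**Figure D3:**
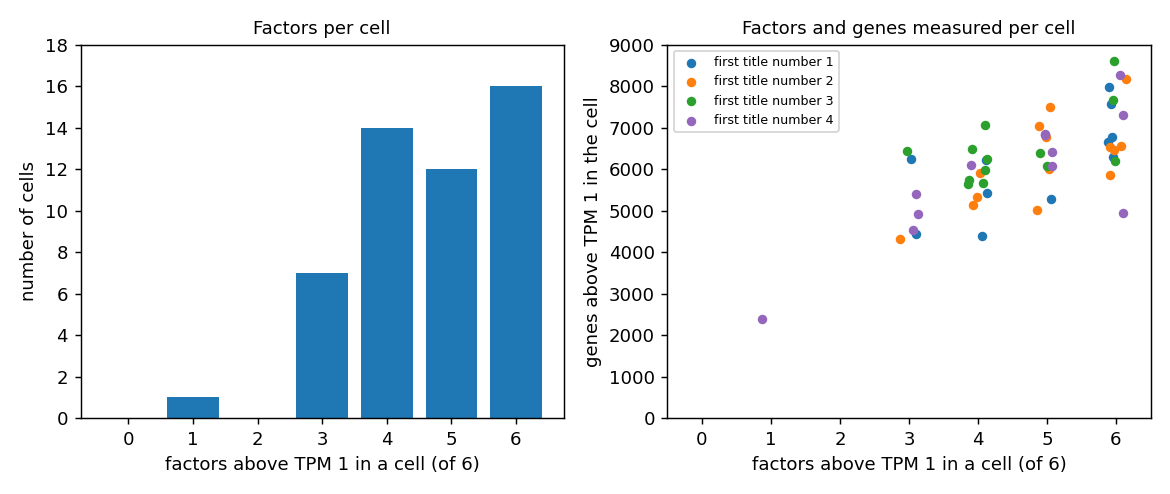
Left, number of cells (bars) holding 0 to 6 of the factors above TPM 1. Right, genes above TPM 1 in each cell against its number of factors, with points spread slightly sideways and coloured by the first title number; the median climbs from 4915 genes at 3 factors to 6713 at 6, with wide overlap.

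The levels of the factors had weak relations with each other from cell to cell. Over the 50 cells the 15 pairs had a median Spearman's rho of 0.11, from -0.19 for Tal1 with Lmo2 to 0.37 for Gata2 with Lyl1, and 11 pairs were above 0. The median was 0.045 over all pairs of gene rows that were expressed in 20% of cells or more. Gata2 with Lyl1 was the single pair of the 15 at 0.3 or more, against 4.46% of all pairs of rows. With genes per cell held constant (partial rho) the median of the 15 was 0.066, from -0.23 to 0.27, Gata2 with Lyl1 came to 0.23, and 0 of the 15 reached 0.3, against 2.62% of all pairs. In the 43 cells with at least 5000 genes the median rho was 0.037 for the 15 pairs and 0.025 for all pairs. All points of a correlation come from the same 50 libraries, which differ in genes measured.

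Of the 15 pairs, 3 were above 0 within each of the 4 first title numbers, and these were the pairs among Gata2, Tal1 and Lyl1. They were picked by this agreement of sign, and the share of all pairs of rows that meet it was not computed. Within the first title numbers Gata2 with Lyl1 ranged from 0.26 to 0.62. Gata2 with Tal1 ranged from 0.10 to 0.48 around a value of 0.24 over all cells, and Tal1 with Lyl1 from 0.026 to 0.44 around 0.18. As Pearson's r of log2(TPM + 0.1) over all cells these 3 pairs had 0.38, 0.24 and 0.033. Tal1 with Lmo2 was below 0 in 3 of the 4.

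**Figure D4:**
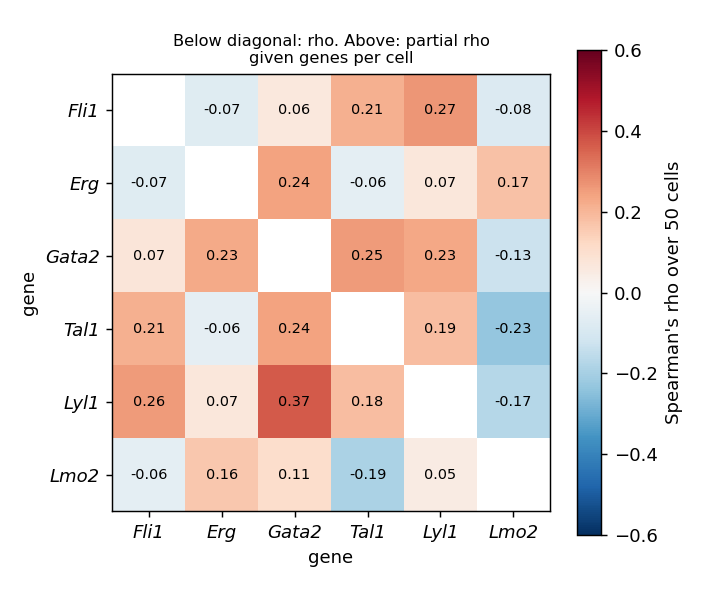
Spearman's rho of TPM over 50 cells for each pair of factors (below the diagonal) and partial rho given genes above TPM 1 per cell (above the diagonal), from blue for negative to red for positive. The deepest colour is Gata2 with Lyl1 at 0.37, which pales to 0.23 above the diagonal.

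A pair could look different by presence and by level. Lmo2 was expressed in 32 of the 43 cells with Lyl1 (74.4%, 58.8% to 86.5%) but in 1 of the 7 without it (14.3%, 0.36% to 57.9%), while their rho over all cells was 0.048 (Pearson's r of log2(TPM + 1) 0.26) and, in the 32 cells with both, -0.13. The 7 cells without Lyl1 had a median of 4528 genes above TPM 1 and the others 6390. Erg and Tal1 showed the reverse. Over all cells their rho was -0.056, and Tal1 was expressed in 57.9% of cells with Erg and 58.3% of those without, but in the 22 cells that expressed both the levels followed each other at rho = 0.68. That value was picked out of 15 after it was seen, and it was the single pair at 0.3 or more on this count. The share of all pairs of rows at 0.3 or more on this count was not computed. The value of 0.68 became 0.66 with genes per cell held constant. On leaving out the cells of any 1 first title number it was 0.48 to 0.81. It was 0.47 in the 15 cells with both above TPM 5 and 0.32 in the 9 cells with both above TPM 10.

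Runx1, the factor switched on by doxycycline and needed for blood cells to leave the endothelium, was above TPM 1 in 43 cells, from 0.163 through a median of 132 to 913 TPM. These values do not separate transcripts of the cassette from those of the cell's own gene. The factors differed in their rho with Runx1 over the 50 cells. Gata2 (0.41), Lmo2 (0.41) and Erg (0.34) were above 0.3, as were 6.49% of the 9103 gene rows above TPM 1 in at least 20% of cells, which placed them 87th, 92nd and 326th. Lyl1 (0.17) and Fli1 (-0.033) lay on either side of the median of those rows (0.071), and Tal1 (-0.19) was 8671st. The relation of Gata2 and Lmo2 with Runx1 was known from an earlier look at these data and is repeated as the base of the values that follow.

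With genes per cell held constant the values were 0.34 for Gata2, 0.33 for Lmo2 and 0.35 for Erg, where 3.45% of rows reached 0.3, and 0.071 for Lyl1, -0.044 for Fli1 and -0.21 for Tal1. Within the first title numbers all 3 were above 0 in each, from 0.12 to 0.55 for Gata2, 0.25 to 0.51 for Lmo2 and 0.23 to 0.38 for Erg. Lyl1 was less even, from -0.25 to 0.73, and its rho was 0.031 without the cells of number 4 and 0.049 in cells with at least 5000 genes. Tal1 ran from -0.29 to 0.27.

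For Lmo2 and Erg the relation was smaller among cells that expressed both genes, and for Gata2 it was not. Lmo2 was expressed in 32 of 43 cells with Runx1 (74.4%) but in 1 of the 7 cells without (14.3%, 0.36% to 57.9%), and among cells with at least 5000 genes in 30 of 39 and 1 of 4. Runx1 itself had a median of 197 TPM (0.30 to 913) in the 33 cells with Lmo2 and 19.1 (0.163 to 614) in the 17 without. For Erg the Runx1 medians were 184 (0.30 to 913) in 38 cells with it and 8.92 (0.163 to 307) in 12 without. The ranges overlapped in both. In cells with both genes expressed, rho with Runx1 was 0.19 for Lmo2 (32 cells) and 0.12 for Erg (34 cells), whereas that of Gata2 was 0.47 (36 cells). On the same count Lyl1 had 0.28 (39 cells), Fli1 0.062 (43 cells) and Tal1 0.020 (24 cells), so the negative sign of Tal1 was lost. In the 43 cells with at least 5000 genes, rho with Runx1 was 0.28 for Lmo2, 0.21 for Erg and 0.44 for Gata2.

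For Tal1 the medians were in the other order. The Runx1 median was 88.03 TPM (0.163 to 913) in the 29 cells with Tal1 and 206 (0.798 to 677) in the 21 cells without it, with overlapping ranges. In the 7 cells that lacked only Tal1, Runx1 ran from 25.5 through 344 to 584 TPM, and in the 16 cells with all 6 factors from 0.30 through 184 to 913. The number of factors per cell followed Runx1 at rho = 0.29, or 0.15 with genes per cell held constant, and from -0.08 to 0.61 within the first title numbers. Leaving out the cells of number 4 lowered it to 0.13, and those of number 1 gave 0.46.

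**Figure D5:**
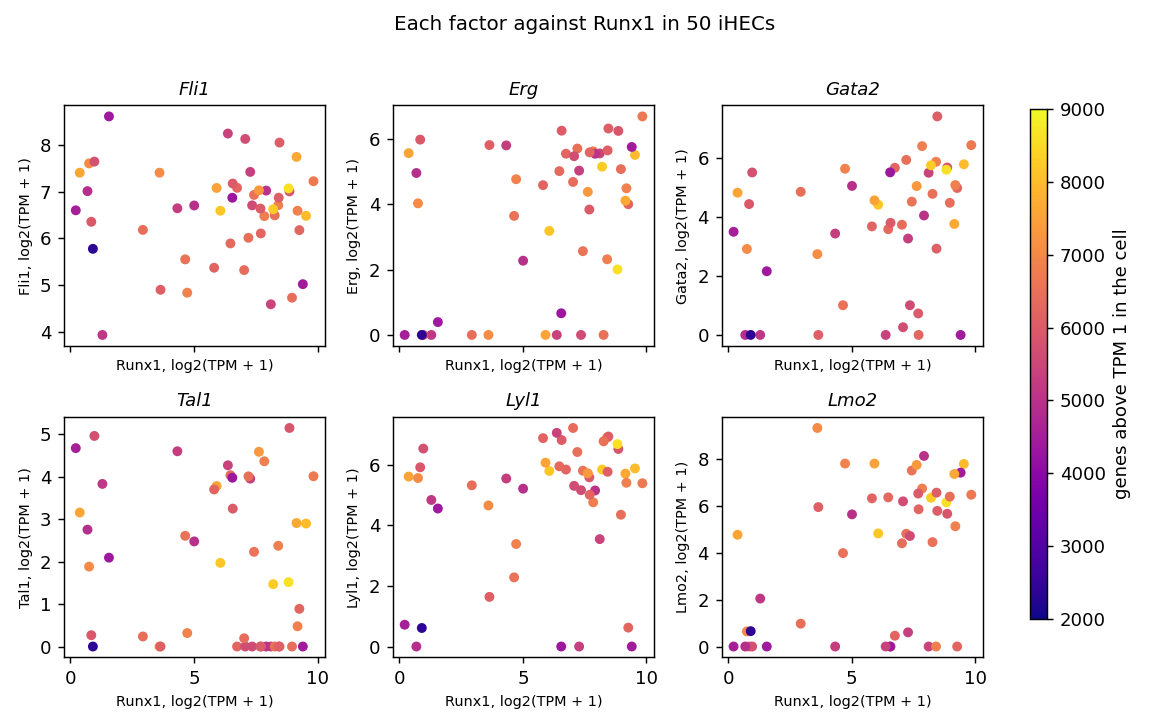
Each factor (vertical axis) against Runx1 (horizontal axis), both as log2(TPM + 1), 1 point per cell in 50 cells, coloured by the genes above TPM 1 in the cell. Of the 7 cells with Runx1 at or below TPM 1, 6 have Lmo2 at or below it too, while Fli1 has a rho of -0.033 with Runx1.

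The partners through which the complex works were broadly present. Of 16 partner genes 15 were above TPM 1 in at least 25 cells, as were 53.2% of all rows. Ldb1, which dimerises and ties Lmo2 to the rest, was expressed in 43 cells with a median of 39.8 TPM, and its bound cofactors Ssbp2 and Ssbp3 in 36 and 43. The E proteins with which Tal1 and Lyl1 pair were at medians of 58.0 (Tcf3), 32 (Tcf4) and 17.9 TPM (Tcf12), and at least 1 of them was expressed in every cell. Ldb1 and an E protein accompanied 24 of the 27 cells with 1 factor of each kind. The corepressor gene Cbfa2t3 (Eto2) was found in 33 cells at a median of 2.58 TPM, and its relative Runx1t1 in 1 cell. Hdac1 was expressed in 50 cells and Cbfb, the partner subunit of Runx1, in 40.

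Inhibitors of bHLH factors were expressed alongside them. Id1, Id2 and Id3, which bind E proteins and keep them off DNA, had medians of 169, 97.1 and 382 TPM. Id3 exceeded both Tal1 and Lyl1 in 42 of 50 cells. Of the 4 Id genes listed these 3 had a row.

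Relatives of the factors, listed together with the GATA cofactor genes Zfpm1 (15 cells) and Zfpm2 (18 cells), were sparser, with 9 of these 11 genes having a row and 2 of those, Gata6 (27 cells) and Lmo4 (37 cells), expressed in at least 25 cells, against 53.2% of all rows. Gata1, the erythroid and megakaryocyte GATA factor, was listed at 0 in all 50 cells, and so was Lmo1 (exact interval 0% to 7.11% for cells above TPM 1, counting error only; a listed 0 need not mean absence). Gata3 and Gata4 were each expressed in 16 cells. Gata2 exceeded Gata6 in 32 cells and was below it in 16. Gata3, Gata4 or Gata6 was expressed in 36 of the 41 cells with Gata2 and in 5 of the 9 without.

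Genes that these factors are known to bind in endothelium were nearly all expressed. The list held Pecam1 (CD31), by which the cells were sorted. Of 19 listed, 18 were expressed in at least 25 cells, including Cdh5 (140), Tie1 (213), Kdr (111) and Egfl7 (1044 median TPM), and Dll4 in 22 cells was the exception, where 53.2% of all rows met this number. None had rho of 0.3 or more with the mean log2(TPM + 1) of the 6 factors, and their median was 0.0094, against 0.13 over all gene rows, of which 13.1% reached 0.3. With single factors, 3 of the 114 values were at 0.3 or more, which were Hhex with Fli1 (0.36), Tek with Fli1 (0.34) and Robo4 with Erg (0.30), against 5.32% over all rows. A further 2 were at -0.3 or less, Cdh5 (-0.36) and Tek (-0.32) with Gata2, against 0.857% over all rows. With genes per cell, Cdh5 had rho of -0.39 and Gata2 0.45, while Tek had 0.00014. Partial rho was not computed for these single pairs, and the part of genes per cell in them was not tested.

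Targets in the blood lineage were mostly sparse. The list held Kit, Itga2b (CD41) and Ptprc (CD45), by which the cells were sorted, so the sort set these counts in part. Of 20 listed, 18 had a row and 5 were expressed in at least 25 cells, namely Kit, Itga2b, Cd34, Meis1 and Mycn, against 53.2% of all rows. Myb, Ptprc and Gata1 were listed at 0 in all cells, the Ets factor gene Sfpi1 (PU.1) was expressed in 24 cells, the repressor gene Gfi1 in 17 and its relative Gfi1b in 1. With the factor mean, 3 of the 11 that could be ranked reached 0.3, which were Kit, the stem cell factor receptor (0.39), the surface antigen gene Cd34 (0.36) and Bcl11a (0.32). With genes per cell held constant only Kit did (0.42), and 3.4% of all rows did. Of the 15 partners that could be ranked 2 (13.3%) reached 0.3, near the 13.1% of all rows, namely Ssbp2 (0.40, partial 0.43) and Cbfa2t3 (0.34, partial 0.27), and the partners' median was 0.17 against 0.13.

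Markers of other cells were set beside co-expression. Of the myeloid markers all 5 had a row and 1, Fcgr3, was expressed in at least 25 cells (33), against 53.2% of all rows. Their summed TPM ran from 0.514 through 151 to 1141 in the 16 cells with all 6 factors and from 0 through 17.3 to 1609 in the other 34. Their sum had rho of 0.44 to the number of factors (partial 0.36 given genes per cell), where the sums of the complex partners had 0.40 (0.44), blood targets 0.32 (0.29), megakaryocyte markers 0.31 (0.16), erythroid markers 0.23 (0.13) and endothelial markers -0.16 (-0.14). Csf1r, Mpo and Cd14 were in 3, 4 and 1 cells. Lyz2 was in 15 cells, at up to 988 TPM. With the factor mean, Fcgr3 had rho of 0.45 (partial 0.41) and Lyz2, the other myeloid marker that could be ranked, 0.11 (partial -0.11), and with Runx1 they had 0.42 and 0.26. Megakaryocyte markers (5 of 6 with a row) summed to 20.2, 176 and 591 TPM as lowest, median and highest with all 6 factors and 0.317, 130 and 841 otherwise, with Itga2b, also a sort marker, and Itgb3 widespread. Erythroid markers (5 of 7 with a row) had a lowest and a median sum of 0 in both, with up to 261 TPM with all 6 factors and 821 otherwise; Epor was in 8 cells and Gata1 in none. Of the mesenchymal markers 2 of 4 had a row, at most 9.15 TPM in sum. The 6 endothelial markers summed to 487, 2139 and 4119 TPM with all 6 factors and 508, 2401 and 5843 otherwise. The part of these markers in the co-expression was not tested.

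Genes with the most similar pattern over the 50 cells were picked by rank from all rows that passed the filter of 20% of cells, so their values are high by choice. For Fli1 they were Elmo2 (rho 0.54), Nynrin (0.51) and Appl1 (0.51), and for Erg Ypel2 (0.55), Hgs (0.52) and Raly (0.51). For Gata2 they were Uhrf1 (0.61), which maintains DNA methylation at replication, Noa1 (0.60) and the adaptor gene Crkl (0.59). For Tal1 they were Tfg (0.55), Spast (0.49) and C77080 (0.48). For Lyl1 they were Sec23b (0.62), a coat protein of vesicles leaving the endoplasmic reticulum, Erp44 (0.60) and Nudt1 (0.60), and for Lmo2 Zfp780b (0.56), Mllt11 (0.55) and the DNA repair gene Apex1 (0.54). The other factors were left out of this ranking.

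With the mean of the 6 factors the highest rows were Zfp692, Bag1, Arrb2, Ahcy and Pdpk1 (0.60 to 0.61), and the lowest were Cbr4 (-0.56) and the ribosomal protein genes Rps27a (-0.51), Rplp1 (-0.50), Rps18 (-0.47) and Rpl35a (-0.46). With genes per cell held constant the ribosomal values were -0.40, -0.33, -0.25 and -0.29. All rows of a cell share 1 total in TPM, and the part of this in these negative values was not tested.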

How the data were processed

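Amplified cDNA from 50 sorted single cells was sequenced. Per the labels and the study's methods, the authors aligned reads to mm10 with HISAT2 (2.1.0), handled alignments with SAMtools (0.1.19) and estimated TPM with StringTie (1.3.4), and deposited 1 table of TPM per gene and cell. No molecular identifiers are named, so amplified copies were not told apart, and the rule that kept 11879 rows is not given in the sources used here. Columns summed to between 942975 and 970894 TPM. The labels and the methods name different sequencers.

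The factors and gene lists were chosen with earlier results of these data known. The named genes were the 6 factors, Runx1, all listed genes, the 3 rows most like each factor, the 5 highest and 5 lowest against their mean, and combinations of at least 3 cells. Spearman's rho and partial rho (given genes above TPM 1 per cell) were computed in Python 3.11.15 with numpy 2.4.6, scipy 1.17.1 and pandas 2.3.3 and tested on simulated data. Gene coordinates came from GENCODE M21 (GRCm38) and upstream sequence from RefSeq. No cell was left out, no clustering was done and no doublet caller was run. Alternatives were TPM above 0, 5 or 10, TPM rescaled without ribosomal protein rows, Pearson's r of log2(TPM + 1) or log2(TPM + 0.1), and leaving out poorly measured cells or each first title number.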

Additional observations from a re-analysis of the deposited data

How the results depend on the processing

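Depth is unknown from TPM. A level of TPM 10 lowered the median share of cells per factor from 79% to 66%, the median number of factors from 5 to 4 and the share of cells with all 6 from 32% to 14%. A level of TPM 5 gave a median of 4 factors and 20% of cells with all 6. Without the cells under 5000 genes the median rho over pairs was 0.037 (from 0.11) and with Runx1 0.13 (from 0.26). With genes per cell held constant the former was 0.066, and as Pearson's r of log2(TPM + 0.1) it was 0.18. In cells with both genes expressed the median rho with Runx1 was 0.15. Leaving out first title number 2 or 3 gave 0.17 or 0.16 for the median over pairs, and leaving out number 4 gave 0.17 for the median with Runx1. The number of factors with Runx1, at 0.29, ran from 0.13 without number 4 to 0.46 without number 1, and was 0.44 at a level of TPM 10 and 0.15 as partial rho, with the value over all cells smaller than its SD over the first title numbers (0.31). The cause was not tested.

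Several single correlations changed sign. In cells with both genes above TPM 1, rho was 0.062 for Fli1 and 0.020 for Tal1 with Runx1, 0.016 for Fli1 with Erg, -0.058 for Fli1 with Gata2, -0.041 for Fli1 with Tal1, 0.25 for Fli1 with Lmo2, 0.68 for Erg with Tal1, 0.14 for Tal1 with Lmo2 and -0.13 for Lyl1 with Lmo2. Without the 7 cells under 5000 genes it was 0.031 for Fli1 with Runx1, 0.022 for Fli1 with Lmo2, 0.0010 for Erg with Tal1, -0.037 for Erg with Lyl1 and -0.14 for Lyl1 with Lmo2. Partial rho was -0.13 for Gata2 with Lmo2 and -0.17 for Lyl1 with Lmo2. Leaving out each first title number in turn gave -0.12 to 0.16 for Fli1 with Runx1, -0.14 to 0.031 for Fli1 with Lmo2, -0.17 to 0.11 for Erg with Tal1, -0.039 to 0.16 for Erg with Lyl1, -0.0735 to 0.24 for Gata2 with Lmo2 and -0.0036 to 0.10 for Lyl1 with Lmo2. The share of rows at 0.3 or more with Runx1 was 6.20% among rows in at least 10% of cells and 5.71% among all rows above 0 in any cell; the median over pairs was not run for the latter. The alternatives for Erg with Tal1 in cells with both, and the median over all pairs in cells with at least 5000 genes, were chosen after seeing the data. No paired analysis was possible because all cells form 1 group.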
